A study of Homo sapiens with 2 samples.

Results

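The cytokine receptor genes OSMR, LIFR, IL6ST, IL7R and IL2RB, the Janus kinase genes JAK1, JAK2, JAK3 and TYK2 and the transcription factor gene STAT3 were followed between AGS.W and AGS.veh. Members were the probe sets that the annotation of the array assigned to 1 of these 10 genes alone. This gave 35 of 54613 probe sets, and 10 of 19775 genes that had at least 1 such probe set. AGS.W is a stable line of AGS, a human gastric adenocarcinoma cell line, made with a lentivirus carrying the coding region of WTX (AMER1), and AGS.veh is its control line. Stable lines were selected with puromycin after infection and not described as single clones. RNA from each line was read on 1 Affymetrix U133 Plus 2.0 array, so there was no replicate, no p-value and no standard error, and every difference is one between 2 cultures.

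IL-6-type cytokines bind receptor complexes built around IL6ST (gp130), which pairs with LIFR for leukaemia inhibitory factor and with OSMR for oncostatin M. The gamma-chain-type receptors, best known from lymphocytes, combine IL2RG with partners such as IL7R, the chain that binds IL-7, or IL2RB, the chain shared by IL-2 and IL-15. Bound receptors bring together Janus kinases, which phosphorylate STAT proteins. STAT3 is the main factor downstream of IL6ST, and it switches on SOCS3, an inhibitor that closes the loop.

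The labels call the samples AGS cells in 1 field and speak of brain tissue in the extraction protocol. Of 8 epithelial markers, 7 were measured and 5 had a mean log2 signal of both arrays at or above 4.02, the mean of the array medians, which is the filter used for genes throughout. Of 11 measured markers of blood cells 3 passed it, and of 7 measured markers of brain cells 3 passed. Over all genes, 12496 of 19775 passed. Of the epithelial markers CDH1, at 2.72 in AGS.W against 2.50 in AGS.veh, did not pass. Neither did KRT19, at 3.11 in AGS.W against 2.76 in AGS.veh. The epithelial markers averaged 6.82 in AGS.W against 6.88 in AGS.veh, the brain markers 4.04 in AGS.W against 3.63 in AGS.veh. Of the brain markers SNAP25 alone was 2-fold apart, at 5.15 in AGS.W against 3.57 in AGS.veh. PTPRC, the defining surface protein of blood cells, had log2 signals of 1.05 to 1.85 in AGS.W against 1.05 to 1.63 in AGS.veh on its 5 probe sets. The array medians over all probe sets were 4.02 in AGS.W against 4.03 in AGS.veh. The probe set of WTX itself had 3.70 in AGS.W against 3.86 in AGS.veh, below the median of each array. Since the vector holds only coding sequence and the target of the probe set within the gene was not settled, this value does not check the labels.

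OSMR, IL7R and JAK3 are shown with the sequence before their starts (RefSeq, GRCh38.p14), because the brightest probe set of each was at least 2-fold apart. IL2RB met the same rule and is named only, since no promoter window was at hand for it. These 250 bases are at chr5:38845762-38846011 (plus strand), chr5:35856641-35856890 (plus strand) and chr19:17847983-17848232 (minus strand). Capitals mark matches to short motifs searched on both strands. TTCNNNGAA is the element of most STAT factors and TTCNNGAA the same with a shorter spacing, while GGGAATTCC and GGANTTTCC resemble NF-kB elements. The motif letters were chosen with the windows in view, and no match in the sequences shown overlaps another.

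OSMR: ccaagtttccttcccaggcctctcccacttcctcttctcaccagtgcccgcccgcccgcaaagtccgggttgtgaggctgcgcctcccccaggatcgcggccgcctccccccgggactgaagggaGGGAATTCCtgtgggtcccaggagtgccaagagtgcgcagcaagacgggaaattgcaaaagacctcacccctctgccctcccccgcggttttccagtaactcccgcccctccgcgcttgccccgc
IL7R: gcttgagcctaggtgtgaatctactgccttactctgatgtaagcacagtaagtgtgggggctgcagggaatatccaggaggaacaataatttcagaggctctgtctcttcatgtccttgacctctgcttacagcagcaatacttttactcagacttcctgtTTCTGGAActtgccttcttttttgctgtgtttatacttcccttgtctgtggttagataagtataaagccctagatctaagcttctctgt
JAK3: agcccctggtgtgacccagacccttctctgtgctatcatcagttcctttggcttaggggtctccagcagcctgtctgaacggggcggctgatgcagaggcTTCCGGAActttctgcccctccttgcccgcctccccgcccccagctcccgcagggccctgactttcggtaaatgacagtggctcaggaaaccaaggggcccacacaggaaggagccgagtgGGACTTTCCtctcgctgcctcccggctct

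LIFR did not meet that rule on its brightest probe set, and stretches of it are shown only because they hold a match. The windows of JAK1 and STAT3 also held a match and are not shown. LIFR has 3 annotated starts, and TTCNNNGAA lay before 2 of them, at chr5:38557626-38557664 and chr5:38595547-38595585 (minus strand). Each is shown with 15 bases on either side of the capitals.

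LIFR first window: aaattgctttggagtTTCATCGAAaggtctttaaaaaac
LIFR second window: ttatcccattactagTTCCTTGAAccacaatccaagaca

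In windows that also hold the 50 bases after each start, 16 windows of 9 members were searched. TTCNNNGAA occurred in 2 of these 16 and in 7.66% of all 35116 windows, and TTCNNGAA in 4 of 16 and in 7.74% of all windows. The 4 windows were those of IL7R, JAK1, JAK3 and STAT3. GGGAATTCC occurred in the window of OSMR and in 0.231% of all windows, GGANTTTCC in that of JAK3 and in 1.64%, and the AP-1 motif TGANTCA in 1 of 16, that of OSMR after its start, and in 7.71%. Because the motif letters were chosen with these windows in view, the shares over all windows do not measure how unusual the matches are. A match is a run of letters and not a measured binding site.

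Among the 35 probe sets, 3 were at least 2-fold higher in AGS.W, against 1.07% of all 54613 probe sets, and 3 were at least 2-fold lower, against 1.12%. The higher ones belonged to OSMR, IL2RB and JAK3, and the lower ones to IL7R (2 probe sets) and LIFR. Of the 35, 25 lay at or above the array median in both lines and 10 below it on both, and no probe set was above it on 1 array alone. Over all 54613 probe sets these numbers were 26115, 26109 and 2389. In direction, 15 of the 35 were higher, 19 lower and 1 equal, and over all probe sets 24298 were higher, 23415 lower and 6900 equal. All 6 probe sets past 2-fold were among the 25, where the shares over all such probe sets were 1.67% higher and 1.44% lower. The genes were chosen with earlier results of these arrays known, so these counts describe the members and do not test them.

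**Figure D1:**
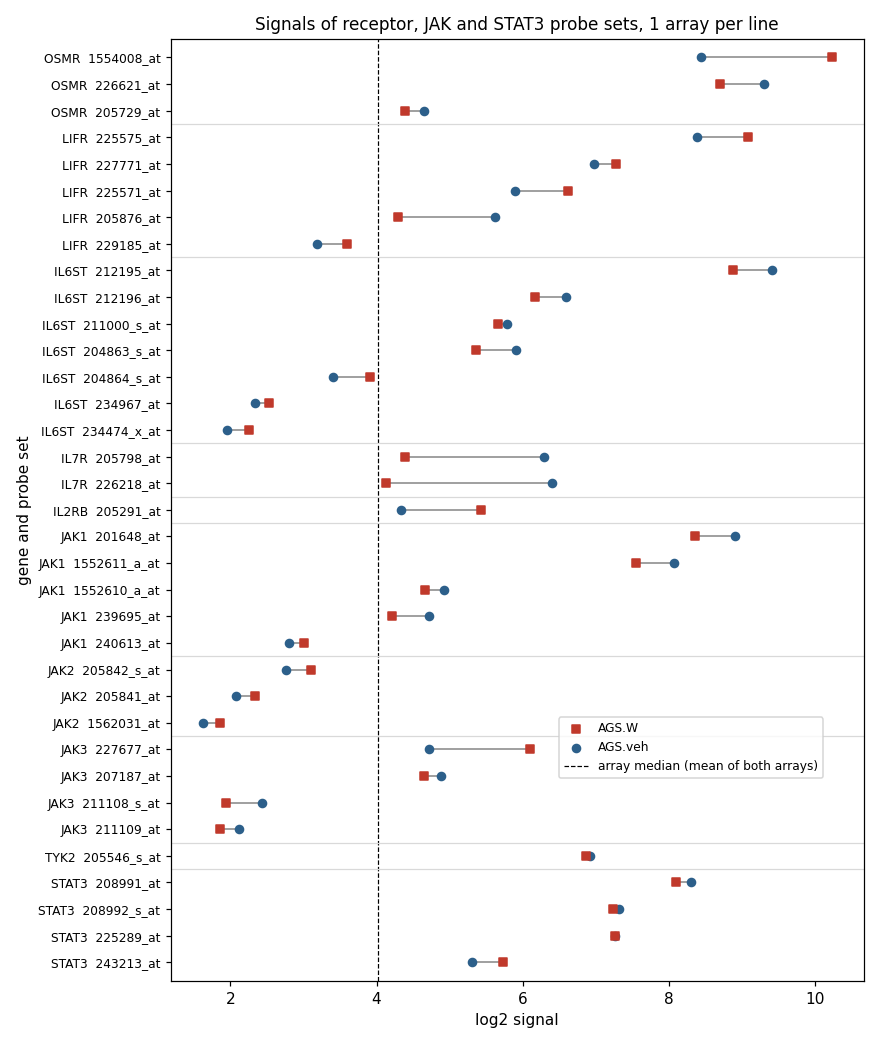
Log2 signal (horizontal axis) of each of the 35 probe sets (rows, grouped by gene) in AGS.W (squares) and AGS.veh (circles), 1 array per line, with the array median as a dashed line. The longest bars are those of both IL7R probe sets, with 4.13 and 4.39 in AGS.W against 6.40 and 6.29 in AGS.veh.

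OSMR, the signalling chain for oncostatin M, gave opposite answers on its probe sets. Its brightest probe set, 1554008_at, had a log2 signal of 10.2 in AGS.W against 8.43 in AGS.veh, a difference of 1.80 or 3.48-fold higher in AGS.W. The second, 226621_at, had 8.71 in AGS.W against 9.31 in AGS.veh, a log2 difference of -0.60. The dimmest, 205729_at, had 4.39 in AGS.W against 4.66 in AGS.veh, with -0.26. All 3 lay above the median of both arrays, and AGS.W was higher on 1 and lower on 2. The log2 differences spanned 2.40, with a mean of 0.31 and a median of -0.26. RefSeq lists 6 curated mRNAs for OSMR, whose gene overlaps RICTOR, and which of them each probe set reads was not settled here.

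LIFR, the chain for leukaemia inhibitory factor and the next protein-coding gene to OSMR on chromosome 5, also diverged. Its brightest probe set, 225575_at, had a log2 signal of 9.09 in AGS.W against 8.39 in AGS.veh, 1.62-fold higher in AGS.W. Probe set 227771_at had 7.28 in AGS.W against 6.98 in AGS.veh, while 225571_at had 6.62 in AGS.W against 5.90 in AGS.veh. The exception was 205876_at, at 4.30 in AGS.W against 5.62 in AGS.veh, a log2 difference of -1.32, with AGS.veh 2.50-fold higher. A dim one, 229185_at, had 3.59 in AGS.W against 3.18 in AGS.veh, below both medians. AGS.W was thus higher on 4 of 5 probe sets, by log2 differences of 0.30 to 0.73, and lower on 1 by more than 2-fold. With the mean of all 5 the difference was 0.16, and with their median it was 0.41. The gene overlaps an antisense RNA, LIFR-AS1, and strand was not settled for its probe sets.

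IL6ST, the shared signalling chain of this family, was lower in AGS.W on each of its 4 probe sets above the median. The brightest, 212195_at, had a log2 signal of 8.88 in AGS.W against 9.42 in AGS.veh, while 212196_at had 6.17 in AGS.W against 6.60 in AGS.veh. Probe set 204863_s_at had 5.36 in AGS.W against 5.91 in AGS.veh, while 211000_s_at had 5.66 in AGS.W against 5.79 in AGS.veh. These log2 differences were -0.54, -0.43, -0.55 and -0.13, none of which reached 2-fold. The 3 dim probe sets, with log2 signals of 2.25 to 3.91 in AGS.W against 1.95 to 3.41 in AGS.veh, had differences of 0.20 to 0.50 in the other direction.

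IL7R, the receptor chain for IL-7 and, with CRLF2, for TSLP, was lower in AGS.W on both of its probe sets. Probe set 205798_at had a log2 signal of 4.39 in AGS.W against 6.29 in AGS.veh, while 226218_at had 4.13 in AGS.W against 6.40 in AGS.veh. The log2 differences were -1.90 and -2.27, and AGS.veh was 3.74-fold and 4.82-fold higher. Both probe sets gave the same picture, clear in AGS.veh and close to the array median of 4.02 in AGS.W. IL2RB, the chain that carries the IL-2 and IL-15 signal, was read by 1 probe set, 205291_at, at 5.43 in AGS.W against 4.33 in AGS.veh, a log2 difference of 1.09 or 2.13-fold higher in AGS.W. These genes are known from lymphocytes, and the 3 blood cell markers above the filter, CD3D, CD3E and CD79A, had log2 differences of 0.30, -0.03 and 0.04. The 11 measured blood markers averaged 3.55 in AGS.W against 3.45 in AGS.veh. Their part in the differences of IL7R, IL2RB and JAK3 was not tested.

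**Figure D2:**
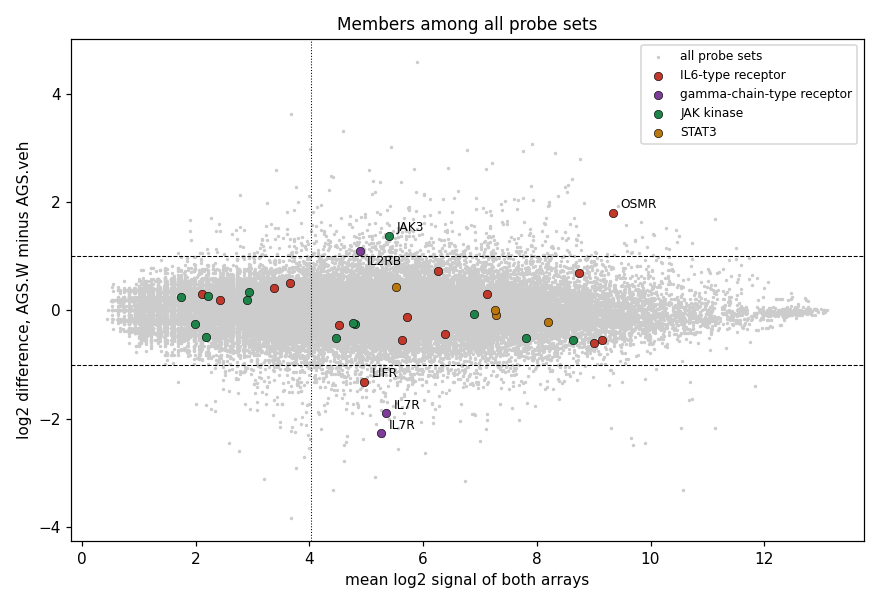
Log2 difference, AGS.W minus AGS.veh (vertical axis), against the mean log2 signal of both arrays (horizontal axis) for all 54613 probe sets (grey) and the members (coloured by family). Dashed lines mark 2-fold and the dotted line the array median, and OSMR stands out at bright signal with 1.80, while IL7R lies at -1.90 and -2.27.

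Of the kinases, JAK1, which docks on IL6ST, IL7R and IL2RB, was lower in AGS.W on all 4 of its probe sets above the median. Its brightest, 201648_at, had a log2 signal of 8.36 in AGS.W against 8.90 in AGS.veh, while 1552611_a_at had 7.56 in AGS.W against 8.07 in AGS.veh. Probe set 1552610_a_at had 4.66 in AGS.W against 4.92 in AGS.veh, while 239695_at had 4.21 in AGS.W against 4.72 in AGS.veh. The log2 differences of -0.54, -0.51, -0.26 and -0.51 lay close together and all were below 2-fold, while the dim 240613_at had 0.20. The gene overlaps RAVER2.

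JAK3, the kinase of the IL2RG chain, also had probe sets of opposite sign. Its brightest probe set, 227677_at, had a log2 signal of 6.10 in AGS.W against 4.72 in AGS.veh, 2.60-fold higher in AGS.W. The second above the median, 207187_at, had 4.65 in AGS.W against 4.88 in AGS.veh, with a log2 difference of -0.23. On the dim 211108_s_at and 211109_at the differences were -0.49 and -0.26, so AGS.W was higher on 1 of 4. As the mean of the 4 the difference was 0.10, and as their median -0.24. RefSeq lists 2 curated mRNAs for the gene.

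JAK2, a kinase that also associates with IL6ST, was below the median on all 3 probe sets on both arrays. Its log2 signals were 1.86 to 3.11 in AGS.W against 1.62 to 2.76 in AGS.veh, with log2 differences of 0.24 to 0.35 on these dim probe sets. The gene overlaps INSL6. TYK2, read by 205546_s_at, had 6.87 in AGS.W against 6.93 in AGS.veh, a log2 difference of -0.06. STAT3 was higher in AGS.W on 1 of its 4 probe sets, lower on 2 and equal on 1. The brightest, 208991_at, had 8.09 in AGS.W against 8.31 in AGS.veh, while 208992_s_at had 7.24 in AGS.W against 7.33 in AGS.veh. Probe set 225289_at had the same value on both arrays, 7.26, and 243213_at had 5.74 in AGS.W against 5.31 in AGS.veh. The log2 differences ran between -0.21 and 0.42, and none reached 2-fold.

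**Figure D3:**
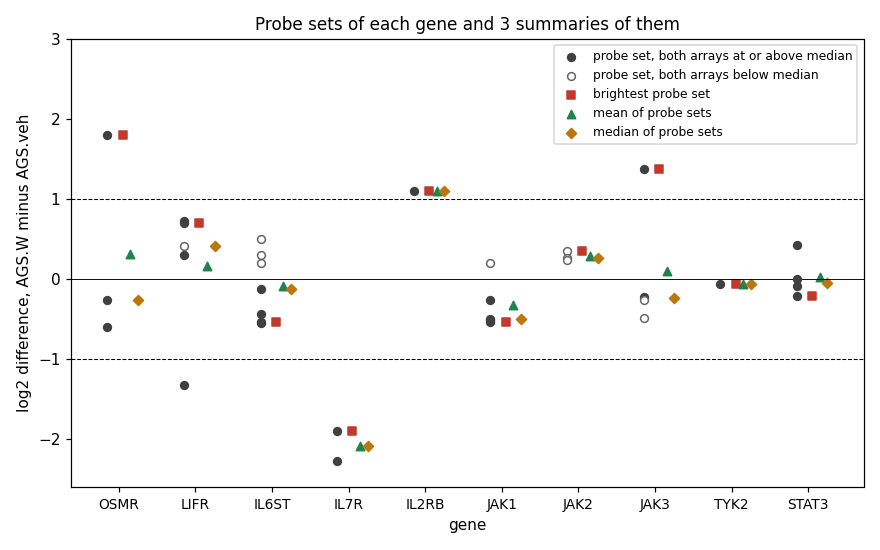
Log2 difference, AGS.W minus AGS.veh (vertical axis), of every probe set of each gene (circles, open where both arrays were below the median), with the brightest probe set, the mean and the median of each gene beside them, and 2-fold as dashed lines. For OSMR the summaries read 1.80, 0.31 and -0.26, and for JAK3 1.38, 0.10 and -0.24, whereas for IL7R they read -1.90, -2.09 and -2.09.

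How often probe sets of a gene disagree was counted for all genes with 2 or more of them at or above the array median in both lines. Of 5609 such genes, 1.60% had a probe set at least 2-fold apart and another of opposite sign. Of the 7 members with as many bright probe sets, 3 did so, OSMR, LIFR and JAK3. OSMR had 3 bright probe sets, LIFR 4 and JAK3 2, and more probe sets give more occasions to disagree. The members were chosen with earlier results of these arrays known, so this count describes them and does not test them. With an offset of 16 added to the signals, 205876_at of LIFR had -0.87 and 227677_at of JAK3 0.997. Neither gene then met the rule, and the share over all genes was not recounted with the offset. Differences that spanned at least 1 on the log2 scale occurred in 5.53% of the 5609 genes and in the same 3 members. Any gene that meets the first rule also meets this one, so the 3 members are no second observation. The other 4 members, IL6ST, IL7R, JAK1 and STAT3, spanned between 0.28 and 0.64.

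The rest of the pathway was described with 8 lists of 109 genes, each gene by its brightest probe set, of which 99 were measured and 72 had a mean signal at or above the array median. Of the 72, 2 were at least 2-fold higher in AGS.W and, on the other side, 4 at least 2-fold lower, set beside 1.82% and 1.81% of all 12496 genes above that filter. In direction, 41 of the 72 were higher and 28 lower, and of all 12496 genes 5687 were higher and 6314 lower. The median log2 difference was 0.07 over the 72 and -0.01 over all 12496 genes. The lists, like the members, were chosen with earlier results of these arrays known. These counts and medians therefore describe the lists and do not test them.

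Of IL-6-type ligands, 7 passed the filter and 2 were at least 2-fold lower. EBI3, a subunit of IL-27, had a log2 signal of 4.53 in AGS.W against 6.22 in AGS.veh, 3.24-fold higher in AGS.veh. IL6 had 5.64 in AGS.W against 6.86 in AGS.veh, a log2 difference of -1.22. The ligands of OSMR and LIFR were not 2-fold apart. LIF had 7.65 in AGS.W against 7.77 in AGS.veh, OSM had 4.21 in AGS.W against 4.11 in AGS.veh, while IL11, which also uses IL6ST, had 8.68 in AGS.W against 8.85 in AGS.veh on its brightest probe set.

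Of partner chains of IL6ST, 4 passed the filter, and IL27RA, the receptor for IL-27, was at least 2-fold lower. Its brightest probe set had a log2 signal of 5.41 in AGS.W against 6.56 in AGS.veh. AGS.W was lower on all 3 of its probe sets, with differences of -1.15, -0.64 and -0.27. IL6R had 7.55 in AGS.W against 7.50 in AGS.veh, IL11RA had 4.58 in AGS.W against 4.42 in AGS.veh, while CNTFR had 4.47 in AGS.W against 4.32 in AGS.veh. These 3 receptor chains thus differed by 0.05, 0.16 and 0.15 on the log2 scale.

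Of 7 genes that pair with IL7R and IL2RB or belong to the same receptor family, 4 passed the filter. These were IL4R, IL9R, IL15RA and CRLF2. IL2RG, the common gamma chain, was not among them and had a log2 signal of 3.34 in AGS.W against 3.10 in AGS.veh, below the median of each array. IL2RA, also below the filter, had 4.16 in AGS.W against 3.83 in AGS.veh. CRLF2 had 4.19 in AGS.W against 4.14 in AGS.veh, while IL15RA had 6.38 in AGS.W against 6.39 in AGS.veh. Of their 6 measured ligands only IL15 passed the filter, at 6.38 in AGS.W against 5.92 in AGS.veh on its brightest probe set. IL7, IL2 and TSLP gave log2 signals of 1.04, 1.45 and 2.08 in AGS.W against 0.83, 1.45 and 1.53 in AGS.veh, all below the median.

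Of 18 inhibitors and phosphatases above the filter, 14 were higher and 4 lower in AGS.W, with a median log2 difference of 0.16. Of all 12496 genes above the filter, 5687 were higher and 6314 lower. The differences of the 18 ran from -0.33 to 1.21, and the list was chosen with earlier results of these arrays known. Only SOCS3 passed 2-fold. Its brightest probe set had a log2 signal of 6.98 in AGS.W against 5.77 in AGS.veh, 2.31-fold higher in AGS.W. The other 3 probe sets of SOCS3 had differences of 0.55, 0.45 and -0.24, the last with a signal near the median. Of 20 STAT3 target genes above the filter, 11 were higher and 9 lower. FOS, an immediate early factor, had 9.21 in AGS.W against 7.88 in AGS.veh, while CCND1, the gene of cyclin D1, had 6.66 in AGS.W against 8.46 in AGS.veh. Both probe sets of CCND1 were lower in AGS.W, by log2 differences of -1.81 and -1.91. Of the other STAT genes 3 passed the filter and none was 2-fold apart on its brightest probe set. In direction 1 was higher and 2 were lower, and all 3 are named here after their values were seen. STAT5B was higher in AGS.W on all 5 of its probe sets, by log2 differences of 0.18 to 1.03. STAT6 was lower on both of its probe sets, with log2 differences of -0.57 and -0.33, and STAT5A had -0.09 on its only probe set.

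**Figure D4:**
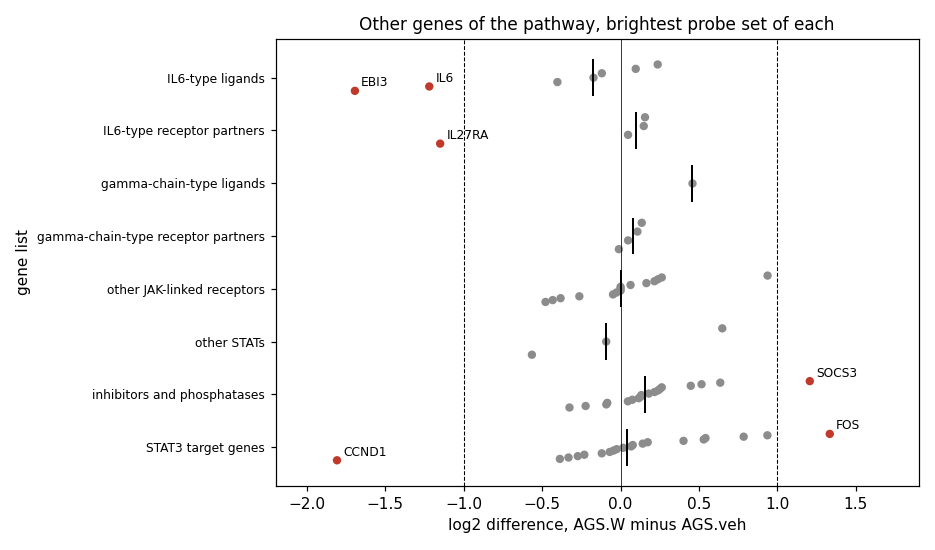
Log2 difference, AGS.W minus AGS.veh (horizontal axis), of genes above the signal filter in 8 lists (rows), each gene by its brightest probe set, with the median of each list as a black bar and 2-fold as dashed lines. Red points are the 6 genes past 2-fold, with CCND1, EBI3, IL6 and IL27RA on the lower side and FOS and SOCS3 on the higher side.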

How the data were processed

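Total RNA of AGS.W and AGS.veh was labelled and hybridised to 1 Affymetrix U133 Plus 2.0 array per line. The authors deposited 1 log2 signal for every probe set and array, on a scale they had normalized. Of the tools, RMA and MAS5 are named, with neither role nor version given in the sources used here. The log2 scale was kept, and 62 control probe sets were left out. Under the 2016 annotation 41091 probe sets belonged to 1 gene, 1801 to more than 1 and 11721 to none, and only the first were used for genes, with symbols updated through RefSeq.

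For each probe set the AGS.veh value was subtracted from the AGS.W value. A gene was represented by its probe set with the highest mean signal. Calls used the 2-fold threshold of the study, without its FDR, which needs replicates. Named genes were all 10 members, their ligands and partners, and up to 3 genes in each direction per list past 2-fold, and genes chosen after their values were seen are marked as such. The members and gene lists were chosen with earlier results of these data known. Arrays give no depth, and their number limits the precision. The steps were tested on simulated arrays with planted shifts well past the threshold and a narrower spread than these arrays have. Such a setting favours recovery, so it checks the code and not the precision of these data. The alternatives tried were quantile normalization, median centring, a lowess fit with span 0.3, an offset of 16, other thresholds, signal filters and gene summaries. Computation used Python 3.11.15 with numpy 2.4.6, pandas 2.3.3 and statsmodels 0.14.6, and plots used matplotlib 3.10.9.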

Additional observations from a re-analysis of the deposited data

How the results depend on the processing

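No paired analysis was possible because AGS.W and AGS.veh had a single array apiece, and no replicate could be left out. Each alternative difference of a probe set or gene was judged by the robust spread of the 1000 probe sets nearest in signal. Of 140 alternative values of member probe sets, 7 moved beyond that spread, and these came with the offset of 16. With it IL7R had -1.35 and -1.58, still past 2-fold. IL2RB had 0.71, 227677_at of JAK3 0.997 and 205876_at of LIFR -0.87, so these calls fell below 2-fold. The dim 204864_s_at of IL6ST and 211108_s_at of JAK3 had 0.22 and -0.11. Median centring, quantile normalization and the lowess curve moved no member by more than 0.04. Of 78 alternative gene-level values 65 stayed within the spread, and 2 beyond it changed direction, OSMR at -0.26 and JAK3 at -0.24, both as the median of all probe sets. STAT3 also changed sign, within the spread, to 0.03 as the mean of all its probe sets or of those above the median. All 40 alternative list medians stayed within the spread of their genes, though that of the STAT3 targets changed sign, at 0.04 by the brightest probe sets and -0.0042 by the mean of each gene.

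Counts were judged by their ratio to the main count and not by a spread. Those that moved follow, with the other counts of members and list genes beside them at the offset and the fold thresholds. With the offset of 16, 258 probe sets passed 2-fold upwards and 209 downwards. Of member probe sets 1 was higher and 2 were lower. At 1.5-fold, 2415 were higher and 2576 lower. Of member probe sets 5 were higher and 4 lower, and of list genes 7 were higher and 4 lower. At 3-fold, 115 were higher and 120 lower, with 1 member probe set higher and 2 lower, and 0 list genes higher and 2 lower. Of probe sets whose mean signal reached the upper quartile, 281 were higher and 223 lower, with 1 member probe set higher and 0 lower. Where both arrays reached the median, 376 probe sets were lower. With genes averaged over their probe sets, 1 list gene was higher. An offset lowers every difference by its construction, the more so at dim signal.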

Other observations

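Many probe sets had exactly the same log2 difference, to 6 decimals, as another probe set. This held for 41387 of 54613 probe sets (75.8%), for 18 of the 35 member probe sets, and for 9 of the 25 members at or above the array median in both lines, against 55.0% of all probe sets at that level. The 41387 include 6900 probe sets with the same value on both arrays, a difference of 0. Of members, 225289_at of STAT3, at 7.26 on both arrays, shared this difference with 6899 others. Probe set 234967_at of IL6ST shared its difference of 0.20 with 410 others and 240613_at of JAK1 its 0.20 with 195. None of the 6 member probe sets past 2-fold shared its value with another. Why values repeat was not tested.

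Other receptors that signal through Janus kinases held no gene 2-fold apart on its brightest probe set. Of 15 above the filter, 6 were higher and 6 lower in AGS.W, with a median log2 difference of 0.00. IFNLR1, a receptor chain for interferon lambda, had a log2 signal of 6.52 in AGS.W against 5.59 in AGS.veh on its brightest probe set, and 4.60 in AGS.W against 4.52 in AGS.veh on the other. IFNAR1, a receptor chain for type I interferons, had a log2 difference of -1.01 on 1 of its 4 probe sets and 0.26 on its brightest. Both genes were chosen after their values were seen.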
